A study of Mus musculus with 6 samples.

Results

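Autophagy delivers cytoplasm, damaged organelles and some engulfed material to the lysosome inside vesicles marked by ubiquitin-like proteins of the ATG8 family, of which LC3 is the best known. A kinase complex built on ULK1 starts the process, a class III PI3-kinase complex makes the lipid PI3P on the growing membrane, and a cascade of conjugating enzymes attaches the ATG8 proteins to a membrane lipid. In macrophages part of the same machinery also conjugates LC3 to phagosomes that hold dying cells, which is called LC3-associated phagocytosis and uses the NADPH oxidase. The genes described here are 31 components of this machinery, chosen by symbol from 34745 genes in the deposited table, where all 31 were found once each. They comprise 5 ATG8 family genes, 7 genes of ATG8 conjugation (enzymes and their partners), 5 genes of the initiation complex and ATG9, 6 of the class III PI3-kinase complexes, 2 PI3P effectors, 2 cargo receptors and 4 genes of vesicle traffic and fusion. Rubcn, the gene for Rubicon, is listed under its older name 1700021K19Rik.

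RNA was sequenced from heart macrophages of 3 Lgmn KO samples (replicates 1, 2 and 4) and 3 WT samples (replicates 1, 2 and 3), all on a C57BL/6 background and from mice of 8 weeks. Lgmn encodes legumain, a cysteine protease of the lysosome, and the study asked how its loss alters the handling of dying cardiomyocytes after myocardial infarction. The labels name LAD ligation and sham surgery without assigning either to an animal, while the series design puts every sample after infarction. Which part of Lgmn was removed, and whether in all cells, is not stated in the labels, nor is it said that each library came from its own animal, so p-values measure only how libraries of a group vary, and that variation may be technical.

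Library totals ran between 19546253 and 24086976 counts, and 12546 genes passed the filter on low counts, all 31 autophagy genes among them. Lgmn itself held 78.7, 88.5 and 83.5 CPM (counts scaled to library size) in Lgmn KO and 2205, 2692 and 2277 CPM in WT. The surface markers used for cell sorting were present in every library, with 401 to 460 CPM in Lgmn KO, against 330.0 to 473 CPM in WT for Ptprc (CD45), 78.2 to 123 CPM in Lgmn KO, against 114 to 311 CPM in WT for Fcgr1 (CD64), and 681 to 737 CPM in Lgmn KO, against 723 to 1083 CPM in WT for the main row of Itgam (CD11b). Summed over 12 T and NK cell markers the level was 1.63 to 2.15 CPM in Lgmn KO, against 6.43 to 15.1 CPM in WT, over 7 fibroblast markers 45.4 to 117 CPM in Lgmn KO, against 132 to 181 CPM in WT, and over 8 cardiomyocyte markers 3.65 to 4.91 CPM in Lgmn KO, against 3.59 to 4.87 CPM in WT. Ncr1 of the T and NK list, Siglech of 7 dendritic cell markers, and Tek and Emcn of 8 endothelial markers had no count in any library. The endothelial list summed to 178 to 234 CPM in Lgmn KO, against 153 to 208 CPM in WT. Most of this was Vwf, at 154 to 204 CPM in Lgmn KO, against 117 to 166 CPM in WT. Of the 4 endothelial markers tested, 2 had a positive log2 fold change (Lgmn KO over WT) and 2 a negative one. The negative ones were Flt1 (-2.79) and Pecam1 (-2.52), so the sum does not stand for the whole list. Dendritic cell markers summed to 3.21 to 5.09 CPM in Lgmn KO, against 5.31 to 15.6 CPM in WT. For 9 neutrophil markers the sum was 272 to 327 CPM in Lgmn KO, against 311 to 454 CPM in WT. Csf3r and Mmp8 made up most of it and went opposite ways. Csf3r was at 179 to 209 CPM in Lgmn KO, against 149 to 181 CPM in WT. Mmp8 was at 70.8 to 97.2 CPM in Lgmn KO, against 142 to 255 CPM in WT. Of the 6 neutrophil markers tested, 3 had a positive log2 fold change and 3 a negative one. Flt1, Zbtb46 and Trac were lower in Lgmn KO at an adjusted p below 0.05 (edgeR quasi-likelihood test), and no other marker passed. The part of these other cells in the values below was not tested, and in sorted bulk RNA fewer cells of a type and less RNA per cell cannot be told apart.

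The autophagy machinery was expressed throughout and differed little between the genotypes. Of the 31 genes, 0 passed an adjusted p of 0.05 in edgeR's quasi-likelihood test, where 99 of all 12546 tested genes did (0.789%; 0.311% higher and 0.478% lower). Only Atg13 had an unadjusted p below 0.05 in that test, 1 of 31 (3.23%) against 2191 of all tested genes (17.5%). DESeq2 also called 0 of the 31 genes, against 5.67% of the genes it tested, and limma-voom called 0, against 0.367%. The fitted log2 fold changes (Lgmn KO over WT) lay between -0.29 for Wipi1 and 0.59 for Map1lc3b, with a median of 0.08 beside a median of -0.0021 over all tested genes, and 19 of 31 were positive against 49.6% of all. In size they had a median of 0.13, against 0.15 over all tested genes.

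The intervals bound most of these genes closely. The 95% interval of the fold change, taken from the quasi-F statistic, lay within 2-fold either way for 30 of the 31 genes (Map1lc3b was the exception) and within 1.5-fold for 26. Of all 12546 tested genes it lay within 2-fold for 9773 and within 1.5-fold for 7386. Fold changes above 1.5-fold in size were found for 1 of the 31 (3.23%) and 12.2% of all tested genes. The median coefficient of variation between libraries was 6.06% in Lgmn KO and 5.77% in WT for the autophagy genes, against 9.59% in Lgmn KO and 10.8% in WT over all tested genes. These comparisons were not matched for expression level, on which the width of an interval and this variation also depend.

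**Figure D1:**
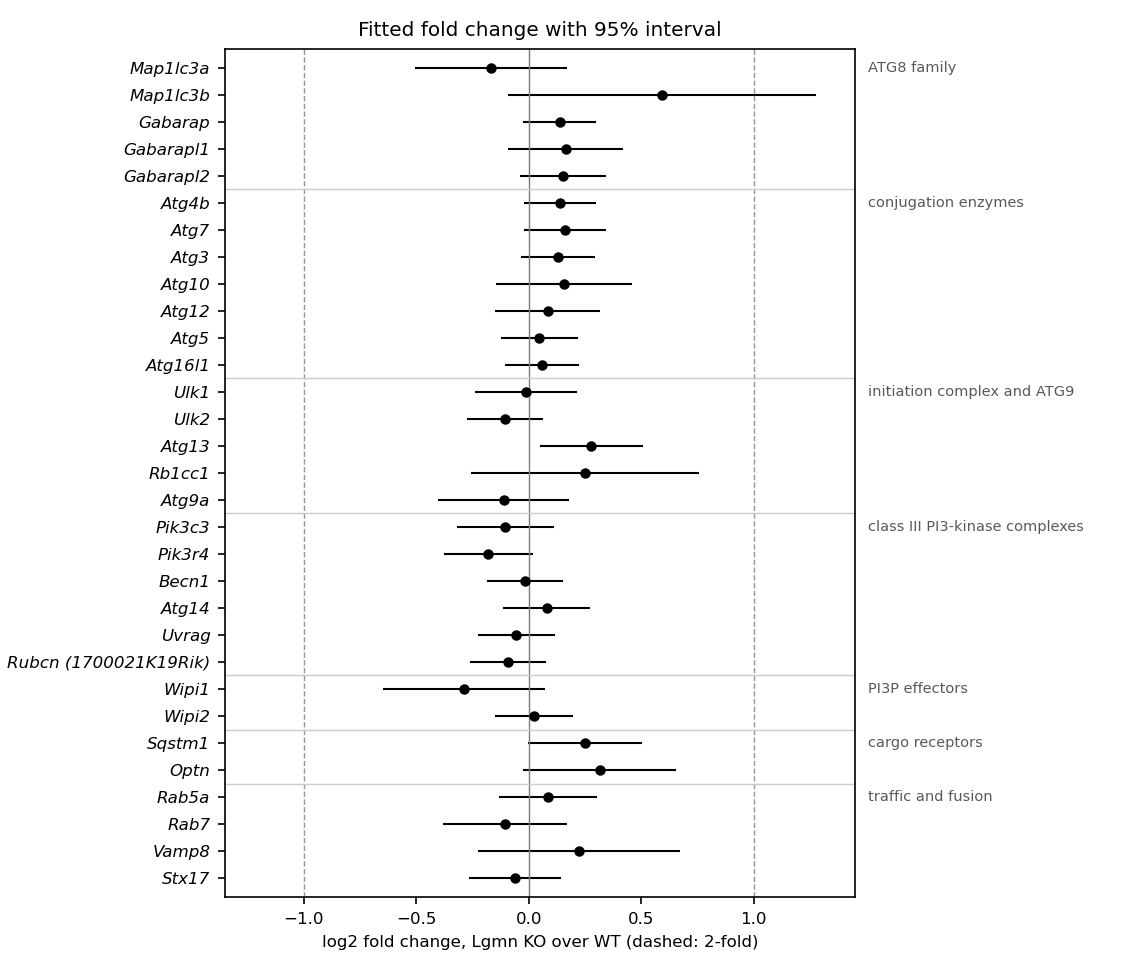
Fitted log2 fold change, Lgmn KO over WT, as points with its 95% interval (bars) for the 31 autophagy genes, ordered by role. Dashed lines mark a 2-fold difference, which only the interval of Map1lc3b crosses, and the interval of Atg13 alone leaves out 0.

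In 7 genes the 3 Lgmn KO libraries did not overlap the 3 WT libraries, 6 of them higher (Gabarap, Gabarapl2, Atg4b, Atg7, Atg10 and Atg14) and 1 lower (Pik3r4). That is 22.6% of the 31, close to the 23.7% found over all tested genes, so the total says nothing particular about these genes. The split of 6 higher to 1 lower differs from that over all tested genes (10.7% higher and 13.0% lower) and was not tested. None of the 7 passed the test.

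**Figure D2:**
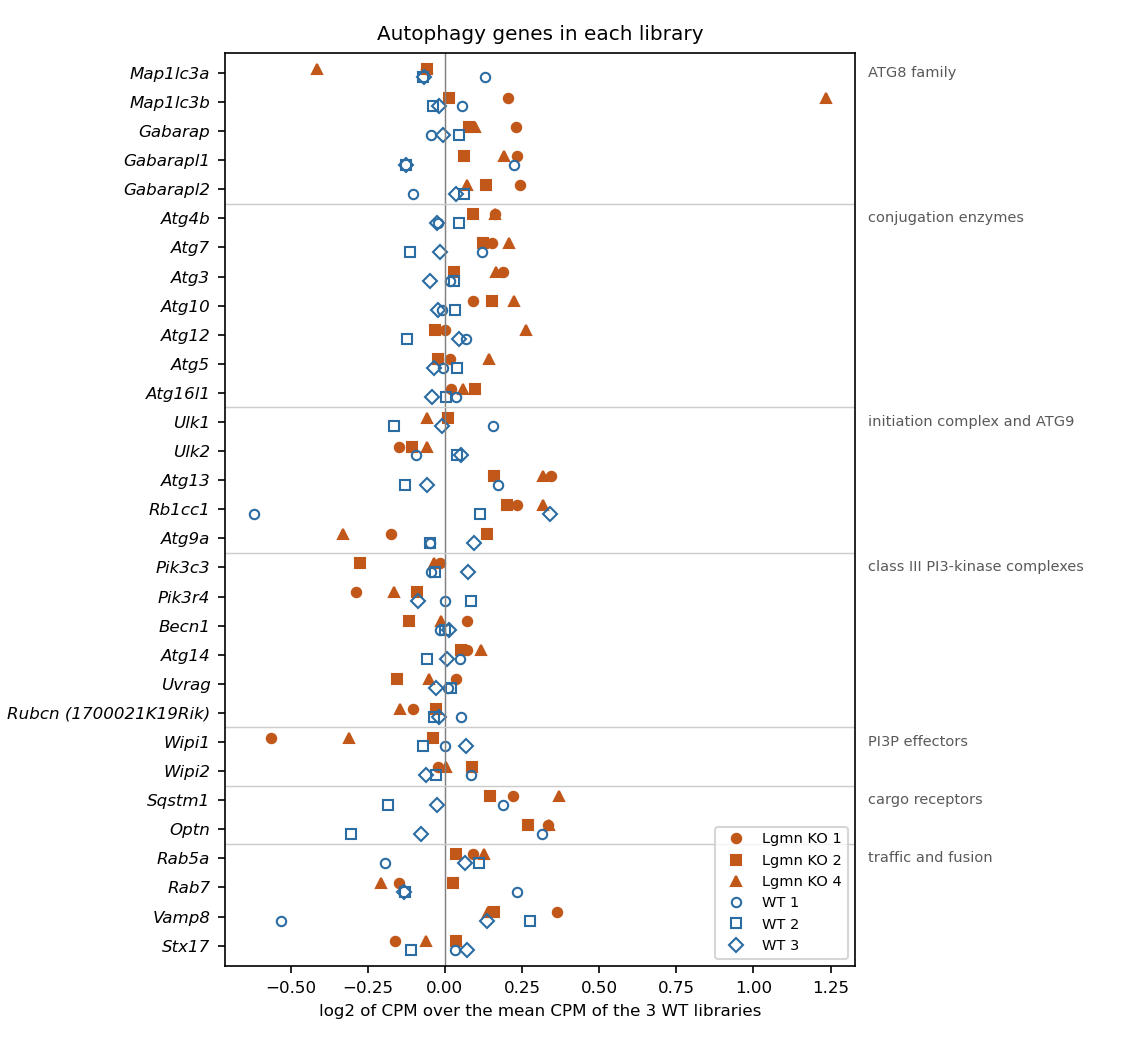
Level of each autophagy gene in each library, as log2 of its CPM over the mean of the 3 WT libraries, for Lgmn KO (filled) and WT (open). Map1lc3b in Lgmn KO replicate 4 stands farthest right, and Rb1cc1 and Vamp8 in WT replicate 1 are among the farthest left.

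The ATG8 family proteins are made with extra residues behind a glycine. ATG4 proteases cut there, and the exposed glycine is then joined to phosphatidylethanolamine. The last 30 bases of each coding sequence, stop codon included, are shown because they hold the point at which the conjugation enzymes described below act. They come from the principal transcripts in GENCODE M21 (GRCm38) and are written 5′ to 3′ on the coding strand, with the last in-frame GGN codon, which encodes that glycine, in capitals.
Map1lc3a: tacgcctcccaagaaaccttcGGCttctga
Map1lc3b: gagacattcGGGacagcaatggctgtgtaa
Gabarap: tacagtgatgaaagcgtctatGGTctgtga
Gabarapl1: tacagtgatgaaagtgtctatGGAaaatga
Gabarapl2: tacagcggagagaacacttttGGCttctga
The capital codon is number 120 in Map1lc3a and Map1lc3b and number 116 in the 3 GABARAP genes. It is followed by 5 coding codons in Map1lc3b and by 1 in each of the other 4 genes.

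Gabarap was by far the most abundant ATG8 transcript in these macrophages, and the LC3 genes were the least abundant. Levels per gene length, which alone allow a comparison between genes, are given as the deposited FPKM (fragments per kilobase of gene length, scaled to sequencing depth). Gabarap had 196 ± 11.5 FPKM in Lgmn KO and 180.2 ± 4.22 FPKM in WT (SD, n = 3 each), the highest of all 31 genes. Gabarapl1 followed with 67.2 ± 3.87 FPKM in Lgmn KO and 60.6 ± 9.64 FPKM in WT, and Gabarapl2 with 17.4 ± 1.09 FPKM in Lgmn KO and 15.8 ± 0.756 FPKM in WT (SD, n = 3 each). Both LC3 genes stood below these: Map1lc3b had 7.69 ± 3.73 FPKM in Lgmn KO and 5.16 ± 0.246 FPKM in WT, and Map1lc3a had 3.76 ± 0.532 FPKM in Lgmn KO and 4.27 ± 0.409 FPKM in WT (SD, n = 3 each). The order of the 5 genes was the same in all 6 libraries.

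As a share of the summed FPKM of the 5 genes, Gabarap made up 67.2 ± 1.36% in Lgmn KO and 67.8 ± 2.70% in WT (SD, n = 3 each), a difference smaller than the spread between libraries. Map1lc3b made up 1.91%, 1.86% and 4.14% in Lgmn KO replicates 1, 2 and 4, against 1.99%, 1.88% and 1.96% in WT replicates 1, 2 and 3. Only Lgmn KO replicate 4 departed from the rest. The length behind the deposited FPKM is 10574 bases for Map1lc3b, whereas its longest protein-coding transcript in GENCODE M21 has 2633 bases, so its FPKM understates the level per transcript length. With counts divided by the longest protein-coding transcript, Map1lc3b made up 3.27% to 7.16% in Lgmn KO and 3.28% to 3.51% in WT. On that scale it lay above Gabarapl2 in Lgmn KO replicate 4 (7.16% against 4.30%) and below it in the other 5 libraries. Gabarap remained highest, at 69.7% to 73.2% in Lgmn KO and 70.3% to 74.6% in WT.

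**Figure D3:**
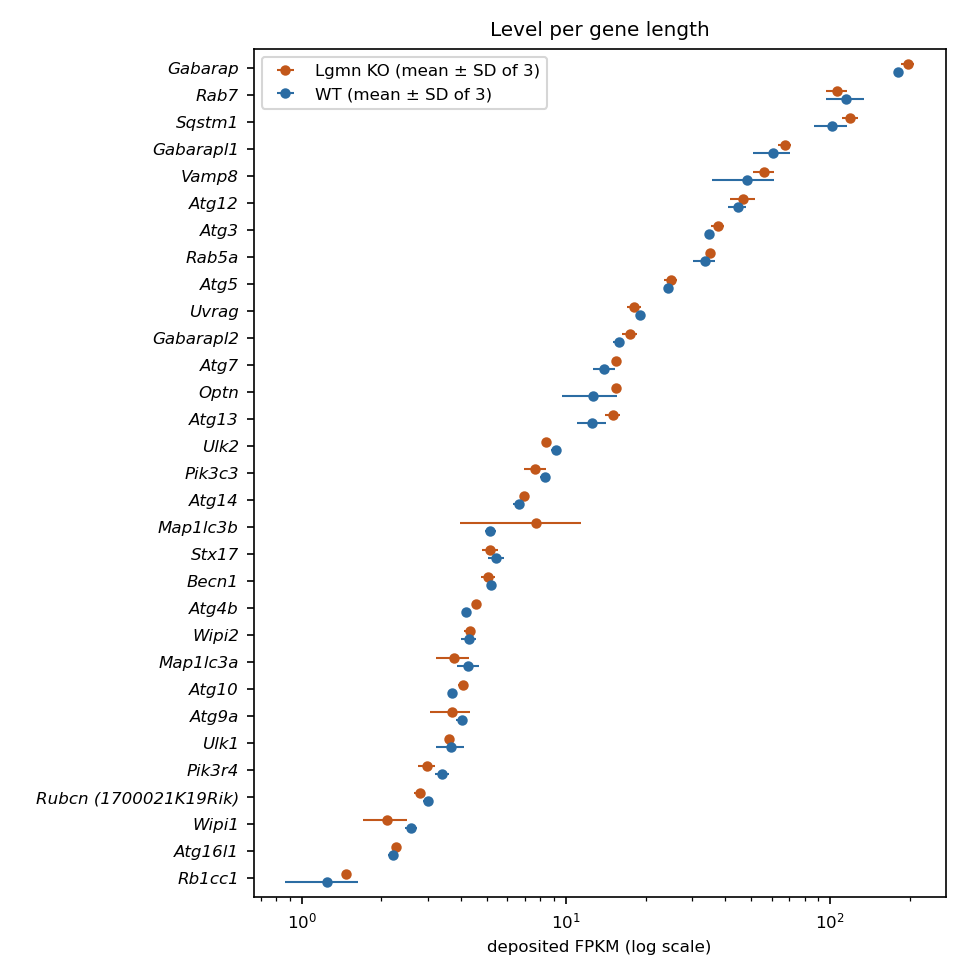
Deposited FPKM on a log axis for the 31 autophagy genes in descending order, as mean and SD of 3 Lgmn KO and 3 WT libraries. The levels run from 196 FPKM in Lgmn KO and 180.2 FPKM in WT for Gabarap down to 1.47 FPKM in Lgmn KO and 1.24 FPKM in WT for Rb1cc1, and neighbours such as Rab7 and Sqstm1 overlap in their SD.

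Map1lc3b, whose product is the usual marker protein of autophagosomes, was the gene with the largest fitted difference, and that difference came from 1 library. It had 62.7, 54.9 and 128 CPM in Lgmn KO replicates 1, 2 and 4, and 56.5, 52.9 and 53.7 CPM in WT replicates 1, 2 and 3. Lgmn KO replicate 4 stood at least 2-fold above each of the other libraries, and Lgmn KO replicate 2 lay within the WT range. The log2 fold change was 0.59 (standard error 0.29, adjusted p = 0.355 in edgeR's quasi-likelihood test), and it was 0.11 without Lgmn KO replicate 4. The raw counts behind this were 2717 in Lgmn KO replicate 4 and between 1074 and 1287 in the other libraries, so depth was not the limit.

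The genes on either side of Map1lc3b on chromosome 8, looked up after its values were seen, did not share the high value. Fbxo31 averaged 12.4 ± 1.26 CPM in Lgmn KO, against 13.2 ± 1.23 CPM in WT (SD, n = 3 each), and Zcchc14, whose exons share 58 bases with those of Map1lc3b, had 3.31, 4.80 and 3.39 CPM in Lgmn KO, against 6.67, 5.56 and 5.30 CPM in WT. In both genes Lgmn KO replicate 4 was at the low end, with 11.1 CPM for Fbxo31. Of the 9564 genes with a mean of at least 5 CPM, 5 were at least 2-fold higher in Lgmn KO replicate 4 than in every other library, and Map1lc3b was one of them. The same count was 5 for Lgmn KO replicate 1, 2 for Lgmn KO replicate 2, 2 for WT replicate 1, 31 for WT replicate 2 and 2 for WT replicate 3. The cause of the high value was not tested.

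**Figure D4:**
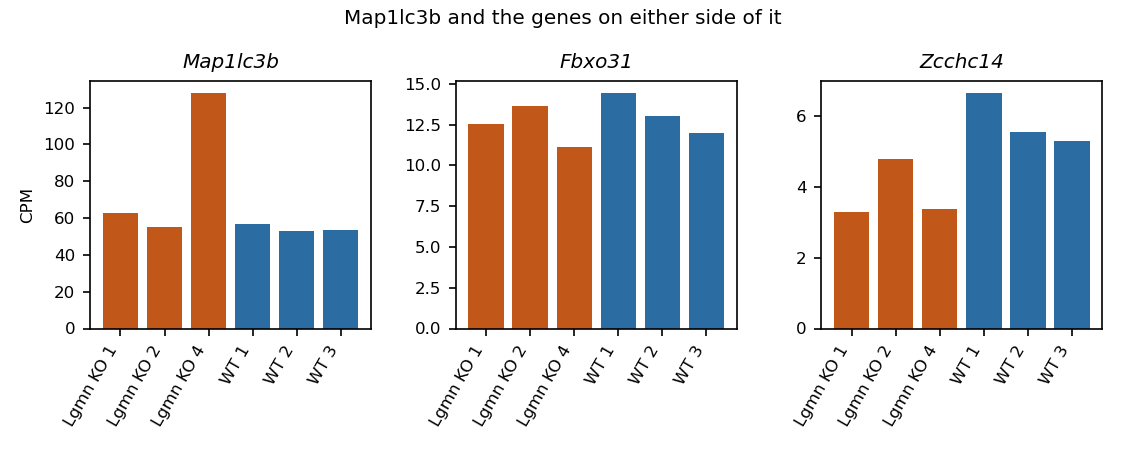
CPM of Map1lc3b and of its chromosomal neighbours Fbxo31 and Zcchc14 in each of the 3 Lgmn KO and 3 WT libraries, with each axis starting at 0. Map1lc3b reaches 128 CPM in Lgmn KO replicate 4 and at most 62.7 CPM elsewhere, and neither neighbour is raised in that library.

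The other 4 ATG8 transcripts differed by less. Gabarap had 702, 631 and 639 CPM in Lgmn KO, against 579.7, 618 and 596 CPM in WT, with all 3 Lgmn KO libraries above all 3 WT libraries (log2 fold change 0.14, standard error 0.07, adjusted p = 0.363 in edgeR's quasi-likelihood test). Gabarapl2 was at 55.1, 51.2 and 49.0 CPM in Lgmn KO, against 43.4, 48.6 and 47.8 CPM in WT, again without overlap (log2 fold change 0.15, adjusted p = 0.396). Gabarapl1 was at 226, 201 and 220.2 CPM in Lgmn KO, against 225, 176 and 176 CPM in WT, so that WT replicate 1 fell among the Lgmn KO libraries (log2 fold change 0.16, adjusted p = 0.500). Without WT replicate 1 the value for Gabarapl1 was 0.29 (adjusted p = 0.0862), and without WT replicate 2 or 3 it was 0.10. Map1lc3a was at 10.3, 10.3 and 8.06 CPM in Lgmn KO, against 11.8, 10.2 and 10.3 CPM in WT, with overlapping groups (log2 fold change -0.17, adjusted p = 0.605). Exons of Gabarapl1 share 570 bases (28.3% of its exon bases) with 1700101I11Rik on the other strand. Whether counting used strand is not stated in the labels or headers, so the reads of such overlapping pairs cannot be told apart.

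The proteins of ATG8 conjugation form 2 linked chains. ATG4B trims the precursors, ATG7 activates them and ATG3 passes them to the lipid, while ATG7 and ATG10 join ATG12 to ATG5, which acts with ATG16L1 at the membrane. All 7 transcripts had a positive log2 fold change, between 0.05 for Atg5 and 0.16 for Atg7, and 0 of them passed the edgeR quasi-likelihood test (0 with an unadjusted p below 0.05). Atg7 had 168, 165 and 175 CPM in Lgmn KO, against 164, 139.8 and 149.7 CPM in WT. Its groups did not overlap, but WT replicate 1 lay within 1 CPM of Lgmn KO replicate 2 (adjusted p = 0.339). Atg4b had 48.7, 46.4 and 48.7 CPM in Lgmn KO, against 42.8, 45.0 and 42.7 CPM in WT, a separation of similar size (log2 fold change 0.14, standard error 0.07, adjusted p = 0.353).

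The remaining 5 conjugation genes had log2 fold changes between 0.05 for Atg5 and 0.16 for Atg10, and 0 of the 5 passed the test. Atg3 averaged 129.9 ± 7.68 CPM in Lgmn KO, against 119 ± 3.44 CPM in WT, and Atg12 averaged 117 ± 13.6 CPM in Lgmn KO, against 111 ± 7.87 CPM in WT (SD, n = 3 each). Atg5, at 58.9 ± 3.57 CPM in Lgmn KO, against 57.0 ± 1.48 CPM in WT, and Atg16l1, at 37.4 ± 1.01 CPM in Lgmn KO, against 35.9 ± 0.952 CPM in WT, had overlapping groups (SD, n = 3 each). Atg10 averaged 6.61 ± 0.307 CPM in Lgmn KO, against 5.93 ± 0.119 CPM in WT (SD, n = 3 each), and its groups did not overlap. In deposited FPKM, Atg12 and Atg3 were highest of the 7 conjugation genes (46.8 and 37.6 FPKM in Lgmn KO, 44.6 and 34.7 FPKM in WT). The length behind the FPKM of Atg12 is 0.52 times its longest annotated coding transcript, and the order changes with the length used. In CPM per kilobase of that transcript, averaged over all 6 libraries, Atg3 (60.4) and Atg7 (41.2) were highest, and Atg12 (23.9) lay beside Atg5 (24.6).

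Promoters of lysosome and autophagy genes can carry E-boxes, short palindromes bound by MiT/TFE transcription factors such as TFEB, and those of Atg3 and Atg7 are shown because both enzymes handle every ATG8 protein. The RefSeq promoter table (GRCm38.p6, 250 bases before to 50 after a start) held 25 of the 31 genes. Entries for Map1lc3a, Atg12, Atg16l1, Rb1cc1, Pik3c3 and Becn1 were missing. The E-box CACGTG, which reads the same on both strands, was found in 6 of the 25 (24%; Atg3, Atg5, Atg7, Atg14, Rab5a and Rubcn), where 8.09% of 27025 genes in the table have it. Rubcn has it only in the promoter at chr16:32868317-32868616, inside the span listed for the gene. Its promoter at the listed gene start (chr16:32877680-32877979) lacks it. The longer form TCACGTGA, which contains it, was found in 2 of the 25 (8%; Atg3 and Rab5a), against 1.12% of all genes. Both sequences are on the plus strand, written 5′ to 3′ with CACGTG in capitals, and the start of Atg7 used by RefSeq lies inside the span listed for the gene.
Atg3, chr16:45158579-45158878: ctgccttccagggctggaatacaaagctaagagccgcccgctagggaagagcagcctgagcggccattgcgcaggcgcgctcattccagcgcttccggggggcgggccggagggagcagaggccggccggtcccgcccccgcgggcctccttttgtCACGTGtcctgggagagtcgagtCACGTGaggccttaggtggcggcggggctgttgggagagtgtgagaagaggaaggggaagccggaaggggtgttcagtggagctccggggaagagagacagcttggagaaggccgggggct
Atg7, chr6:114670846-114671145: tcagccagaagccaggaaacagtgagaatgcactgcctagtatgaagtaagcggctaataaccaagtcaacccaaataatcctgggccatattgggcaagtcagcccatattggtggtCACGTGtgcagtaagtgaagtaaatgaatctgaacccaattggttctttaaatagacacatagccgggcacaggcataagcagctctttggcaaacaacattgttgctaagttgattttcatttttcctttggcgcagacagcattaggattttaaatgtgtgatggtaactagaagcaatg
The E-boxes begin 94 and 71 bases before the start in Atg3 and 132 bases before it in Atg7. A match describes these letters only.

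The initiation complex joins the kinases ULK1 and ULK2 with the adaptor ATG13 and the scaffold FIP200, encoded by Rb1cc1, and ATG9A is the membrane protein of the vesicles that seed the autophagosome. Atg13 had the smallest p of the 31 genes. It was at 115, 101 and 113 CPM in Lgmn KO, against 102, 82.7 and 87.0 CPM in WT, with WT replicate 1 just above Lgmn KO replicate 2. The log2 fold change was 0.28 with a standard error of 0.10 and a 95% interval of 0.048 to 0.51, and the unadjusted p of 0.0239 became an adjusted p of 0.209 over all tested genes (edgeR quasi-likelihood test). In the fits without 1 library its adjusted p was 0.0562 at the lowest, and over the other alternatives it ran between 0.163 and 0.534.

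Transcripts of both kinases were nearly equal between genotypes, with log2 fold changes of -0.01 for Ulk1 (95% interval -0.24 to 0.21) and -0.10 for Ulk2 (95% interval -0.27 to 0.065). Rb1cc1, described for its outlying library after the values were seen, had 32.9, 32.2 and 34.8 CPM in Lgmn KO, against 18.2, 30.3 and 35.4 CPM in WT. WT replicate 1 alone was low, and the log2 fold change of 0.25 (adjusted p = 0.610) was 0.02 without it. Atg9a averaged 41.7 ± 7.01 CPM in Lgmn KO, against 45.0 ± 2.60 CPM in WT (SD, n = 3 each), with a log2 fold change of -0.11. Exons of Atg9a share 1832 bases (31.8% of its exon bases) with the transcript Gm29253 on the same strand, and those of Rb1cc1 share 558 bases with an antisense gene.

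The class III PI3-kinase consists of the catalytic subunit VPS34 (Pik3c3), the regulatory subunit VPS15 (Pik3r4) and beclin 1 (Becn1), joined either by ATG14 in autophagosome formation or by UVRAG in later traffic, where Rubicon restrains it in autophagy and takes part in LC3-associated phagocytosis. Of these 6 genes 5 had a negative log2 fold change, from -0.18 for Pik3r4 to -0.02 for Becn1, and Atg14 had one of 0.08; 0 passed the edgeR quasi-likelihood test, and 0 had an unadjusted p below 0.05. Pik3r4 had 41.2, 47.2 and 44.8 CPM in Lgmn KO, against 50.2, 53.2 and 47.3 CPM in WT. Its groups did not overlap, though Lgmn KO replicate 2 and WT replicate 3 nearly met (standard error 0.08, adjusted p = 0.330). Summed over the 6 genes the level was 271 to 287 CPM in Lgmn KO, against 291 to 294 CPM in WT, a description that was not tested.

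The single genes were close. Becn1 averaged 64.7 ± 4.19 CPM in Lgmn KO, against 65.5 ± 0.679 CPM in WT, Uvrag 62.6 ± 4.15 CPM in Lgmn KO, against 65.0 ± 1.16 CPM in WT, and Pik3c3 41.3 ± 4.01 CPM in Lgmn KO, against 44.4 ± 2.08 CPM in WT (SD, n = 3 each). Rubcn (1700021K19Rik) averaged 42.5 ± 1.72 CPM in Lgmn KO, against 45.3 ± 1.51 CPM in WT, and Atg14 24.0 ± 0.536 CPM in Lgmn KO, against 22.7 ± 0.857 CPM in WT (SD, n = 3 each). For Becn1 the 95% interval of the fold change ran from 0.88 to 1.11. Exons of Becn1 share 3104 bases (43.9% of its exon bases) with Cntd1 on the other strand, and 17.6% of the exon bases of Uvrag lie in an antisense gene.

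WIPI proteins bind the PI3P made by this kinase, and WIPI2 recruits ATG16L1. Wipi2 differed by less than the spread between libraries (log2 fold change 0.02, 95% interval -0.15 to 0.20). Wipi1 had the most negative value of the 31 genes, with 9.97 ± 1.81 CPM in Lgmn KO, against 12.2 ± 0.594 CPM in WT (SD, n = 3 each; log2 fold change -0.29, standard error 0.15, adjusted p = 0.389 in edgeR's quasi-likelihood test). Lgmn KO replicate 2 lay within the WT range for Wipi1. Without that library the log2 fold change was -0.43, and without Lgmn KO replicate 1 it was -0.16.

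Cargo receptors tie ubiquitinated material to ATG8 proteins, and both measured here had higher means in Lgmn KO without passing the test. Sqstm1, which encodes p62 and was the third most abundant of the 31 genes per length, had 823, 782 and 914 CPM in Lgmn KO, against 804, 621 and 694 CPM in WT. Optn, which encodes optineurin, had 88.3, 84.4 and 88.5 CPM in Lgmn KO, against 87.0, 56.7 and 66.4 CPM in WT. In both genes WT replicate 1 lay at Lgmn KO levels while WT replicates 2 and 3 lay below all Lgmn KO libraries. The log2 fold change was 0.25 for Sqstm1 (standard error 0.11, adjusted p = 0.293) and 0.32 for Optn (standard error 0.15, adjusted p = 0.323; edgeR quasi-likelihood test).

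Without WT replicate 1 Optn was the 1 gene of the 31 that passed, with a log2 fold change of 0.50 (adjusted p = 0.0307, edgeR quasi-likelihood test on 3 Lgmn KO and 2 WT libraries). In that fit 4.99% of all tested genes passed, so 1 of 31 is below the background. Leaving out WT replicate 2 instead gave 0.18, and with all libraries the adjusted p of Optn ran between 0.282 and 0.562 over the alternatives. Sqstm1 did not pass in any fit without 1 library, where its lowest adjusted p was 0.0886. Exons of Sqstm1 share 580 bases (17.3% of its exon bases) with Mrnip on the other strand.

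**Figure D5:**
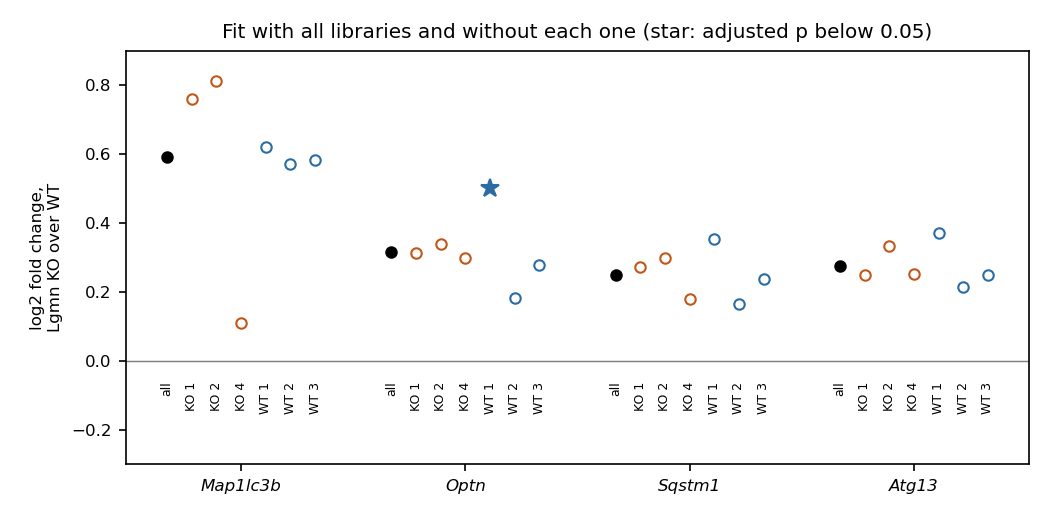
Fitted log2 fold change, Lgmn KO over WT, for Map1lc3b, Optn, Sqstm1 and Atg13 with all libraries (black) and without each library in turn (orange without an Lgmn KO library, blue without a WT library). Map1lc3b drops to 0.11 without Lgmn KO replicate 4, and the star marks Optn without WT replicate 1, the only fit shown that passed an adjusted p of 0.05.

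Among the genes of traffic and fusion, Rab5a and Rab7 encode GTPases of early and late endosomes, and Vamp8 and Stx17 encode SNARE proteins that fuse vesicles with lysosomes. Rab7, the second most abundant of the 31 genes per length, had 735, 829.8 and 705 CPM in Lgmn KO, against 957, 744 and 742 CPM in WT, and Vamp8 had 179.9, 156 and 154 CPM in Lgmn KO, against 96.8, 169 and 154 CPM in WT. For both it was WT replicate 1 that stood outside the other 5 libraries, high for Rab7 and low for Vamp8. The log2 fold change was -0.11 for Rab7 (adjusted p = 0.709) and 0.22 for Vamp8 (adjusted p = 0.607, edgeR quasi-likelihood test), and without WT replicate 1 it was 0.03 for Rab7 and 0.02 for Vamp8. Rab5a, at 83.3 ± 2.69 CPM in Lgmn KO, against 78.5 ± 8.70 CPM in WT, and Stx17, at 40.6 ± 2.80 CPM in Lgmn KO, against 42.3 ± 2.76 CPM in WT, had overlapping groups (SD, n = 3 each).

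Outside these 31 genes, 74 further genes of the pathway were listed from textbook knowledge, with earlier results of these data known. Of them 73 were found and 72 tested. Of the 72, 2 passed, 1 higher and 1 lower, where 0.789% of all tested genes passed. Both encode NADPH oxidase subunits. Ncf4, which encodes p40phox and binds PI3P, rose to 214, 223 and 202 CPM in Lgmn KO, against 137, 149 and 149 CPM in WT (log2 fold change 0.55, adjusted p = 0.0277). Cybb, the catalytic subunit, fell to 741, 678 and 713 CPM in Lgmn KO, against 1030.2, 1557 and 1294 CPM in WT (log2 fold change -0.86, adjusted p = 0.0486; edgeR quasi-likelihood test). Both calls were lost in each fit without 1 library other than WT replicate 1, and Cybb was not called by limma-voom or with DESeq2's size factors in edgeR. Of the other subunits Ncf1 stood at -0.44 on the log2 scale (adjusted p = 0.0665) and Cyba at 0.09.

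None of the remaining lists had a gene that passed. Among 19 tested autophagy receptors the median log2 fold change was 0.11, and 6 genes were higher and 1 lower at an unadjusted p below 0.05, where 17.5% of all tested genes were below it in either direction. The mitochondrial receptor gene Bnip3l was at 413, 401 and 446 CPM in Lgmn KO, against 352, 311 and 300.4 CPM in WT (log2 fold change 0.39, adjusted p = 0.0817), and Tax1bp1, which binds ubiquitinated cargo, was at 593, 571 and 666 CPM in Lgmn KO, against 421, 469 and 490 CPM in WT (log2 fold change 0.41, adjusted p = 0.0824). Wdfy3, which encodes the aggregate-binding scaffold ALFY, went the other way with the third smallest p of the list and is named after its values were seen. It was at 153, 160.3 and 147 CPM in Lgmn KO, against 195, 183 and 187 CPM in WT (log2 fold change -0.29, adjusted p = 0.0844). The groups did not overlap in any of these 3 genes, which held for 23.7% of all tested genes. DESeq2 called all 3, against 5.67% of the genes it tested. Among 17 genes of autophagosome to lysosome fusion the median was 0.10, with Tecpr1, which tethers autophagosomes to lysosomes, at 0.42 (adjusted p = 0.133) and the lysosomal GTPase gene Arl8b at 0.21 (adjusted p = 0.258). The median was 0.02 over 20 other core genes, led by Sh3glb1 at 0.22 (adjusted p = 0.142) and Atg16l2 at 0.23 (adjusted p = 0.421), and -0.00099 over 10 tested kinase genes upstream of ULK1, led by Prkag2 at 0.30 (adjusted p = 0.181) and Prkab1 at 0.17 (adjusted p = 0.412, edgeR quasi-likelihood test throughout).

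The authors' deposited table gives a q-value for all 31 genes. None of the 31 genes in the authors' deposited table had a q-value below 0.05, the lowest being 0.195 for Map1lc3b, where 666 of 17476 genes with a q-value fell below that limit.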

How the data were processed

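Samples were grouped by their titles. Per the file headers, the deposited table gives a count and an FPKM value per gene and library; the deposited counts are whole numbers with different totals and were taken as raw. The deposited FPKM divides by a gene length that was 0.323 to 2.73 times the exon bases of the 31 genes in GENCODE M21, so it was used only to describe levels. The authors' log2 fold change, p-value and q-value are deposited without a named test. The submitters' processing notes list HISAT2, TopHat and TopHat2 2.0.9 and a human build (hg38), but 98.6% of the gene IDs are in GENCODE M21 (GRCm38), which positions follow.

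Counts were filtered with filterByExpr, scaled by TMM and tested across all genes with edgeR 4.0.16 (glmQLFit, glmQLFTest; R 4.3.3), Lgmn KO against WT, with Benjamini-Hochberg adjustment and a threshold of 0.05. CPM uses the TMM factors. Alternatives used DESeq2 1.42.0, limma 3.58.1 (voom), other scaling, no low-count filter, a threshold of 0.1, a replicate block and each library left out; a second gene length was chosen after seeing the data. Chi-square per degree of freedom between libraries of 1 group was 14.0 to 42.7, so libraries differed by more than counting noise. Each library was treated as 1 sample, but these values do not show that libraries came from separate animals. The procedure was run on simulated counts with planted changes of at least 2-fold and the same level of variation for every gene. That run does not show whether smaller differences, such as those of most genes described here, would be found. Values in each library are given for the 8 genes of smallest p, the ATG8 family and the 5 genes of highest FPKM, and per further list for called genes, otherwise the 2 of smallest p. The 31 genes and all lists were chosen with earlier results of these data known. Intervals cover the spread between libraries.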

Additional observations from a re-analysis of the deposited data

How the results depend on the processing

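The count of 0 autophagy genes passing was the same in every alternative but the fit without WT replicate 1 (range without 1 library: 0 to 1). All genes passing numbered 165 with library totals alone, 318 with no filter, 782 with DESeq2, 46 with limma-voom, 503 at a threshold of 0.1 and 6 to 639 without 1 library. Further pathway genes passing numbered 1 with DESeq2 size factors (0.717% of all tested genes then) and 7 with DESeq2 (5.67% of all). They numbered 1 with limma-voom (0.367%), 6 at 0.1 (4.01%) and 0 to 4 without 1 library (0.0468% to 4.99%). Autophagy genes without overlap between groups numbered 4 with library totals alone (23.3% of all tested genes then) and 8 to 16 without 1 library (30.7% to 39.5% of all), where fewer libraries have to stay apart. Their median log2 fold change was 0.055 to 0.096 without 1 library. With the replicate block (numbers 1 and 2, which the labels do not say are pairs) 39 genes and 0 further pathway genes passed, so neither Ncf4 nor Cybb did, and the median was 0.038; same-numbered libraries deviated with correlations of 0.12 and 0.08. Signs turned under the block for Atg5 (-0.020), Ulk1 (0.011) and Atg9a (0.029). Without 1 library they turned within these ranges: Becn1 -0.054 to 0.032, Wipi2 -0.0078 to 0.068, Atg12 -0.020 to 0.14, Atg5 -0.0069 to 0.082, Ulk1 -0.089 to 0.070, Rab5a -0.0021 to 0.14 and Rab7 -0.18 to 0.026. None of these genes passed the test in any of the fits, and the causes were not tested. Depth allowed all 31 genes to be tested; with 3 libraries a group, their 95% intervals reached a median of 0.22 to either side on the log2 scale.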

Other observations

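The other 4 genes, besides Map1lc3b, that were at least 2-fold higher in Lgmn KO replicate 4 than in every other library, at a mean of at least 5 CPM, were Tmed2, Nek7, Ipmk and Gm28036. Tmed2, which encodes a cargo receptor of the early secretory pathway, had 82.6 CPM in that library and 1.31 to 3.50 CPM in the other 5. Nek7, a kinase that also binds NLRP3, had 137 CPM there and 35.4 to 39.5 CPM elsewhere, and Ipmk, an inositol phosphate kinase, had 51.8 CPM there and 21.1 to 25.2 CPM elsewhere. These genes were chosen after their values were seen, and the cause was not tested.

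Of the 31 autophagy genes, 12 had their highest or lowest value in Lgmn KO replicate 1 (38.7%, against 37.4% of all tested genes), 6 in Lgmn KO replicate 2 (19.4%, against 28.6%) and 14 in Lgmn KO replicate 4 (45.2%, against 31.4%). The count was 9 in WT replicate 1 (29.0%, against 35.2%), 9 in WT replicate 2 (29.0%, against 42.9%) and 12 in WT replicate 3 (38.7%, against 24.6%). These counts describe the libraries and were not tested.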
